A study of Mus musculus with 14 samples.

Results

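A set of 7 genes of GABA signalling are described here over 14 bulk RNA-seq libraries of mouse embryonic forebrain. They are 5 subunits of the GABA-A receptor (Gabra2, Gabra3, Gabra4, Gabra5 and Gabrb2) and 2 chloride cotransporters (Slc12a2 and Slc12a5). They were chosen by symbol, with earlier results of these data known. Each of the 7 symbols matched 1 of the 56941 gene IDs in the tables. Polyadenylated RNA was taken from the telencephalon at E12.5 and from the cortex at E18.5, where E gives the day of gestation. Control libraries, called ff by the sample titles and dfl by the table columns, carry the floxed alleles of Sbno1 and Trp53, with 3 libraries at E12.5 and 4 at E18.5. Double conditional knockout libraries (dcKO) add the Emx1-Cre driver to both floxed genes, with 3 libraries at E12.5 and 4 at E18.5. Emx1-Cre recombines in progenitors of the dorsal telencephalon and not in the ventral progenitors that give rise to cortical interneurons, so unrecombined cells remain in dcKO tissue. No group carried the driver alone or a single knockout, so what the driver does and what each deletion does cannot be told apart. Stage likewise cannot be told apart from the change of dissection from telencephalon to cortex.

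GABA opens the GABA-A receptor, a ring of subunits around a chloride channel, and each receptor usually combines alpha subunits, beta subunits and a gamma or delta subunit. The direction of the current depends on chloride inside the cell, which Slc12a2 (NKCC1) loads and the neuronal cotransporter Slc12a5 (KCC2) extrudes. In rodent forebrain Slc12a2 is expressed early and in many cell types, and Slc12a5 increases as neurons mature, a change linked to the shift of GABA from depolarising to hyperpolarising action.

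Total expected counts were 42.04 to 81.96 M (M, 1e+06) in 12 libraries, 4.92 M in E12.5 ff library 9 and 5.98 M in E18.5 dcKO library 2, with libraries numbered as in their titles. The targeted genes check the labels in part. At E12.5 Sbno1 differed by -0.59 on the log2 scale (adjusted p = 0.0505, edgeR's quasi-likelihood test, Benjamini-Hochberg adjusted), with no overlap of the groups. By the same test at E18.5, Sbno1 differed by -0.03 (adjusted p = 0.68). Sbno1 thus does not check the labels of that stage, whose libraries are described as labelled dcKO. Trp53 differed by -0.23 (adjusted p = 0.22) at E12.5 and by -0.20 (adjusted p = 0.032) at E18.5. Emx1, the gene that the driver is named after, differed by -0.96 at E12.5 (adjusted p = 0.0083, edgeR). At E18.5 it differed by -0.81 (adjusted p = 8.3e-06, edgeR). The Emx1 values of the 2 genotypes were separate at each stage. What lowers Emx1 was not tested. The choroid plexus gene Ttr stood at 1.82 TPM (transcripts per 1e+06) in E18.5 dcKO library 12 and at 1401 to 3203 TPM in the other 7 libraries of that stage. All 7 dcKO libraries were male by Xist, and 3 of 7 ff libraries were female. The labels do not say whether libraries came from separate embryos, so p-values measure the spread between these libraries.

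A total of 10 RefSeq starts on GRCm38.p6 were found for 6 of the 7 genes. The windows searched did not cover every chromosome. Slc12a2 had none among them, which does not show that it lacks a RefSeq start. The stretches printed are 300 bases each, from 250 before to 50 after a start, and belong to the alpha subunits with the greatest falls at E18.5 and to the 2 starts of Slc12a5, which rose at that stage. Gabra2 lies on the minus strand at chr5:71095800-71096099, Gabra5 on the minus strand at chr7:57510010-57510309, and Slc12a5 on the plus strand at chr2:164960596-164960895 and chr2:164967738-164968037. Capitals mark matches, on either strand, to the CCAAT box (CCAAT), the GC box (GGGCGG), the TATA box (TATAAA) and the E box (CACGTG).
Gabra2: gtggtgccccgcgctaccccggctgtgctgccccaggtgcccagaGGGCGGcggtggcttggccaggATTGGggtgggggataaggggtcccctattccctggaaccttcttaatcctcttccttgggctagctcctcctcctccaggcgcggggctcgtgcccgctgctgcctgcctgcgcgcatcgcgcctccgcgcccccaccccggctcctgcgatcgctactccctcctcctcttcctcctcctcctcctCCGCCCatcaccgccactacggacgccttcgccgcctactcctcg
Gabra5: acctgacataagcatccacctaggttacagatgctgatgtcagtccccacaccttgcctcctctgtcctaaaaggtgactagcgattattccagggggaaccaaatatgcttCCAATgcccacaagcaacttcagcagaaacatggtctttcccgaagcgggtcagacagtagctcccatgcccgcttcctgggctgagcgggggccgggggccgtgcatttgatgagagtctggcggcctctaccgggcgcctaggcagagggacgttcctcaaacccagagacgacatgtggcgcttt
Slc12a5, upstream start: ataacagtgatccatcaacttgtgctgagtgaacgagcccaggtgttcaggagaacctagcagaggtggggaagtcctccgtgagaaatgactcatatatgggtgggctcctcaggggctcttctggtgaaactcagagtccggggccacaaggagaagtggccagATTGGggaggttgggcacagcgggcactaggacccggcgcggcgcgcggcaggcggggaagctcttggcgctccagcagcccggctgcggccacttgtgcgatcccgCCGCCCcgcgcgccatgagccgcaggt
Slc12a5, downstream start: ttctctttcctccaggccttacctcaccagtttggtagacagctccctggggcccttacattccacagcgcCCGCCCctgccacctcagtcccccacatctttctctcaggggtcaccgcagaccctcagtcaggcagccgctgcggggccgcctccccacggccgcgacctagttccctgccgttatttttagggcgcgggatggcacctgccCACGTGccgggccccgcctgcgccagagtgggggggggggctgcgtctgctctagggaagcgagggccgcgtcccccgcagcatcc
The Gabra2 window was 70% G and C with 2 GC boxes, and the Gabra5 window was 56.7% G and C with a CCAAT box and no GC box. Both Slc12a5 windows held a GC box, and the downstream start alone held the E box. Across the 32851 RefSeq windows searched, 35.7% held a GC box, 37.4% a CCAAT box, 13.6% a TATA box and 7.15% an E box. The windows of the 2 Gabra3 starts overlap (chrX:72656758-72657057 and chrX:72656870-72657169) and share the same TATA box match, on the strand opposite to the gene. The window of the most upstream Gabrb2 start also held a TATA box match. The nuclear factor I element TTGGCA, present in 14.1% of the windows searched, was found in none of the 10. These matches describe letters in a window, and the gene-level counts do not tell which start was used.

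The 7 genes stood in a different order at the 2 stages. Levels between genes are given as TPM, which corrects for transcript length. In ff telencephalon at E12.5, Slc12a2 had the highest mean at 17.6 ± 1.48 TPM (SD, n = 3), above Gabra3 in all 3 libraries. Gabra3 (11.7 ± 1.99 TPM), Gabra2 (9.71 ± 2.18 TPM), Slc12a5 (8.37 ± 3.83 TPM) and Gabrb2 (8.25 ± 2.14 TPM) followed, each overlapping its neighbour. Gabra5 (3.74 ± 1.27 TPM) and Gabra4 (3.15 ± 1.35 TPM) were lowest and overlapped each other.

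By E18.5 Gabra5 had moved from sixth place to the top in ff cortex, at 55.3 ± 4.87 TPM (SD, n = 4), above Gabra2 in all 4 libraries. Gabra2 (38.4 ± 5.46 TPM) overlapped Gabra3 (36.5 ± 1.38 TPM), and Slc12a5 (29.3 ± 2.88 TPM) overlapped Gabrb2 (26.9 ± 5.05 TPM). Slc12a2 (15.7 ± 1.83 TPM) was sixth and Gabra4 (10.7 ± 0.91 TPM) seventh, with no overlap between them. In the E18.5 libraries labelled dcKO, Gabra5 was again highest at 45.1 ± 3.0 TPM and Gabra4 lowest at 9.35 ± 0.97 TPM. Slc12a5 stood second there at 39.4 ± 5.33 TPM, and each neighbouring pair from Gabra5 down to Slc12a2 (20.6 ± 1.98 TPM) overlapped.

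**Figure D1:**
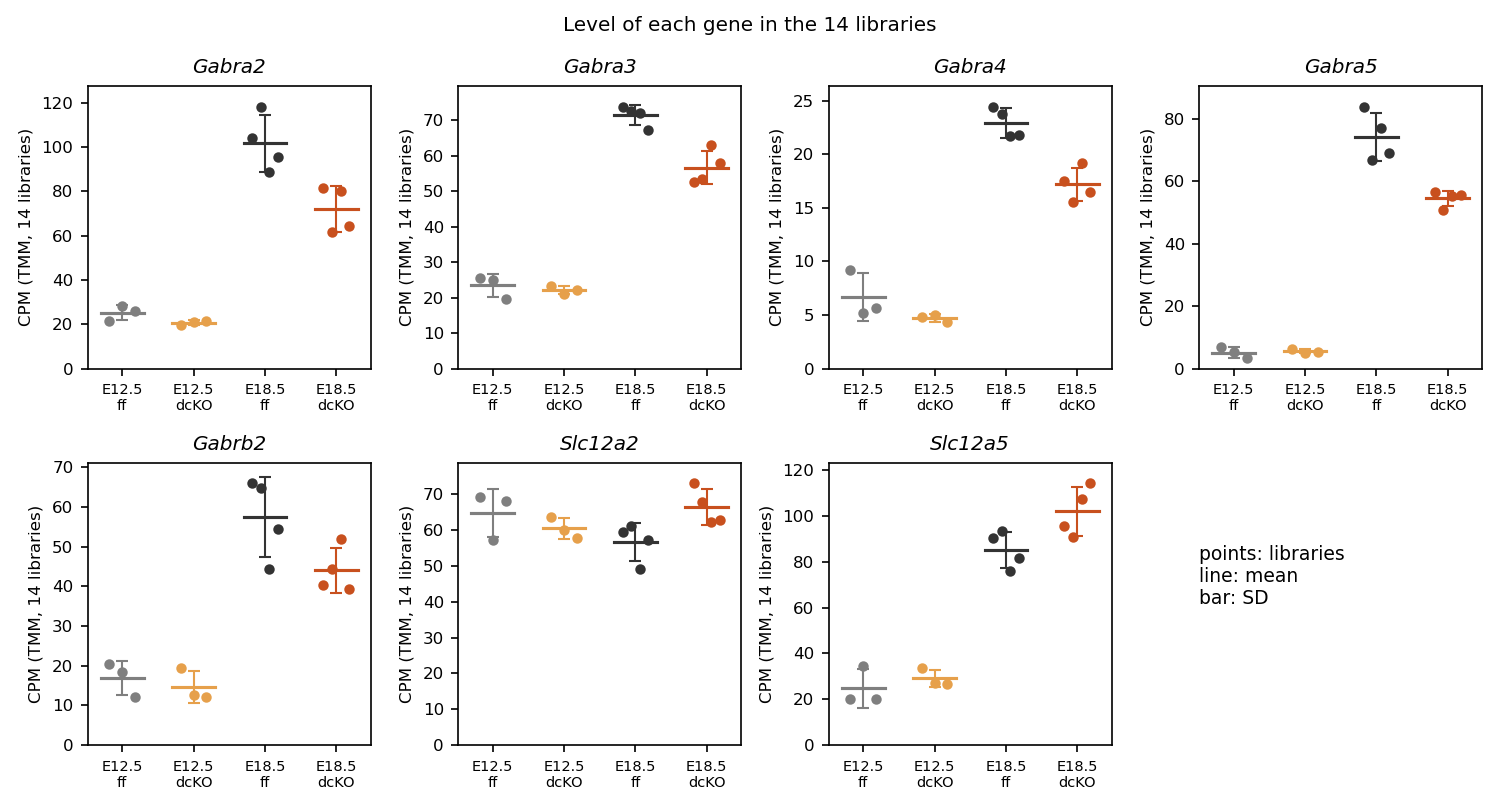
Level of each gene in every library, as counts per 1e+06 counts (CPM) scaled by TMM over all 14 libraries, on linear axes from 0. Points are libraries, lines are group means and bars are SD. Gabra5 shows the greatest difference between stages, and Slc12a2 overlaps between stages in both genotypes.

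Of the 7 genes, 6 rose between the stages in each genotype and Slc12a2 did not pass the test in either. In ff the 6 rises stand against 31.5% of 19327 genes called higher and 29.9% called lower. In dcKO the same 6 genes rose, against 30.9% called higher and 31.3% called lower. The 2 stage comparisons share no library. Values in this paragraph and the next are CPM scaled over 14 libraries, and tests are edgeR's quasi-likelihood test, Benjamini-Hochberg adjusted.

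Gabra5, an alpha subunit found largely in extrasynaptic receptors and prominent in hippocampus and deep cortical layers, went from 5.10 ± 1.74 CPM (n = 3) to 74.2 ± 7.79 CPM (n = 4) in ff, a 16.2-fold rise (log2 4.02, SE 0.17, adjusted p = 1.5e-11). In dcKO it went from 5.51 ± 0.58 to 54.5 ± 2.52 CPM, a 9.85-fold rise (log2 3.30, SE 0.15, adjusted p = 8.4e-11). The other 4 subunits rose by 1.63 to 1.97 on the log2 scale in ff and by 1.36 to 1.86 in dcKO. Slc12a5 rose by 1.73 in ff (SE 0.18, adjusted p = 1.2e-06) and by 1.81 in dcKO (SE 0.17, adjusted p = 7.2e-07). Slc12a2 differed by -0.18 in ff (adjusted p = 0.082) and by 0.13 in dcKO (adjusted p = 0.21). With a correction for gene length, the Slc12a2 difference was -0.43 in ff (adjusted p = 0.00072) and turned to -0.30 in dcKO (adjusted p = 0.0105).

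At E12.5 none of the 7 genes passed the test between genotypes. Of 17853 genes 0.19% were called in either direction, and 3433 had an unadjusted p under 0.05. Among the 7 genes, 1 had such a p, and DESeq2 and limma-voom also called 0. DESeq2 gave no adjusted p for Gabra4 and Gabra5, so it could not call them. Their log2 differences ran from -0.44 for Gabra4 to 0.20 for Slc12a5, with adjusted p from 0.17 to 0.80.

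Gabra2, an alpha subunit of synaptic receptors that is abundant in embryonic forebrain, had the lowest unadjusted p at 0.0189 in edgeR's quasi-likelihood test. It stood at 28.2, 25.9 and 21.7 CPM in ff libraries 4, 7 and 9 and at 19.6, 21.0 and 21.7 CPM in dcKO libraries 2, 6 and 10. On this scale the groups met without crossing, and the difference was -0.31 (SE 0.11, adjusted p = 0.17, edgeR). Corrected for gene length, the difference was -0.21 (adjusted p = 0.318, edgeR). With CPM scaled over all 14 libraries, ff library 9 (21.51 CPM) fell below dcKO library 10 (21.65 CPM). In TPM, ff library 9 (7.19 TPM) lay below every dcKO library (7.91 to 8.61 TPM).

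Gabra4, an alpha subunit that pairs with delta in extrasynaptic receptors of the mature forebrain, stood at 5.20, 5.60 and 9.30 CPM in ff libraries 4, 7 and 9 and at 4.82, 5.02 and 4.35 CPM in dcKO libraries 2, 6 and 10. The high ff value rests on 45 counts in the shallow library 9, and the other ff values lay just above the dcKO values. The difference was -0.44 (SE 0.23, adjusted p = 0.33, edgeR), and over the alternative settings it ran from -0.59 to -0.19. Gabra5 stood at 5.25, 3.29 and 6.82 CPM in ff and at 6.18, 5.08 and 5.30 CPM in dcKO in the same library order, with the dcKO values inside the ff range. Without ff library 7 its difference went from 0.17 to -0.09. Gabra3, Gabrb2, Slc12a2 and Slc12a5 also overlapped between the genotypes. The Slc12a5 difference was 0.54 without ff library 4 (adjusted p = 0.0996, edgeR) and 0.03 without ff library 7 (adjusted p = 0.96, edgeR).

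**Figure D2:**
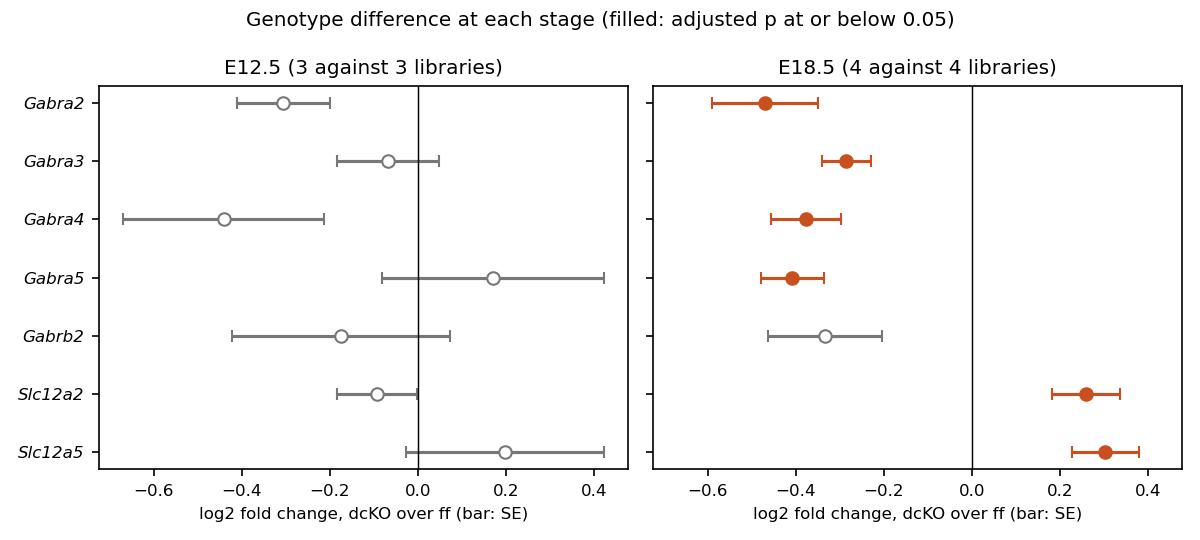
Genotype difference of each gene at E12.5 (3 against 3 libraries) and E18.5 (4 against 4), as log2 fold change of dcKO over ff from edgeR with its SE. Filled points passed the adjusted p threshold of 0.05. No point is filled at E12.5, and at E18.5 the 4 alpha subunits lie below 0 and both cotransporters above.

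At E18.5 the 4 alpha subunits described here and the 2 cotransporters differed in opposite directions. Gabra2, Gabra3, Gabra4 and Gabra5 were lower in the libraries labelled dcKO, by 0.29 to 0.47 on the log2 scale in size, and Slc12a2 and Slc12a5 were higher by 0.26 and 0.30. Gabrb2 did not pass the test. The 4 lower genes stand against 16.6% of 17974 genes called lower and the 2 higher genes against 15.6% called higher. The median difference was -0.38 over the 5 subunits and 0.03 over all genes tested. Over the 10 other GABA-A subunits tested it was 0.06. The 5 were chosen with earlier results of these data known, so their median is not support for a fall of the receptor subunits in general. Calls in the next paragraphs are edgeR's quasi-likelihood test, Benjamini-Hochberg adjusted over all genes, and levels are CPM scaled within the stage. In bulk tissue, fewer cells of a type and less RNA per cell cannot be told apart.

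Gabra2 stood at 102, 115, 87.2 and 95.2 CPM in ff libraries 7, 8, 17 and 18 and at 85.6, 61.9, 80.1 and 64.4 CPM in dcKO libraries 2, 3, 12 and 13. Every dcKO value lay below every ff value, though dcKO library 2 came within 2 CPM of ff library 17. The means were 99.9 ± 11.9 and 73.0 ± 11.6 CPM (SD, n = 4 each), a difference of -0.47 (SE 0.12, adjusted p = 0.017, edgeR). With sex in the model the call was lost, at -0.39 (adjusted p = 0.088).

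Gabra3, an X-linked alpha subunit typical of the embryonic and early postnatal brain, was at 72.0, 71.0, 71.1 and 67.1 CPM in ff and at 55.2, 53.9, 63.0 and 57.9 CPM in dcKO, in the same library order. The ff values were close together and all above the dcKO values. The difference was -0.29 (SE 0.06, adjusted p = 0.0023, edgeR).

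Gabra4 was at 23.9, 23.3, 21.4 and 21.8 CPM in ff and at 18.4, 15.7, 19.3 and 16.5 CPM in dcKO. No values crossed in CPM, and the difference was -0.38 (SE 0.08, adjusted p = 0.0035, edgeR). Exons of Gabra4 overlap exons of Gabrb1 on the opposite strand in GENCODE M21, and exons of Gabra5 overlap those of Gm9962. The strand used for counting is not given in the sources used here, so reads of these genes and their antisense partners may not have been told apart.

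Gabra5, with the lowest p among the 7, was at 81.8, 65.4, 75.9 and 68.8 CPM in ff and at 59.4, 51.1, 55.3 and 55.5 CPM in dcKO. The dcKO values lay within a narrow band under the lowest ff value. The means were 73.0 ± 7.36 and 55.3 ± 3.37 CPM (SD, n = 4 each), and the difference was -0.41 (SE 0.07, adjusted p = 0.0011, edgeR).

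Gabrb2, a beta subunit of synaptic receptors in the mature brain, was at 64.4, 63.5, 43.8 and 54.3 CPM in ff and at 42.6, 44.8, 52.0 and 39.5 CPM in dcKO. Library 17 of ff fell among the dcKO values. The difference was -0.33 (SE 0.13, adjusted p = 0.078, edgeR). It was called lower without ff library 17 (-0.46, adjusted p = 0.0052), without dcKO library 12 (-0.42, adjusted p = 0.0399), with a length correction (-0.40, adjusted p = 0.027) and by DESeq2 (-0.35, adjusted p = 0.0157).

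Slc12a2 was at 58.1, 59.7, 48.5 and 57.1 CPM in ff and at 76.8, 68.3, 62.2 and 62.8 CPM in dcKO. All dcKO values lay above all ff values, and the difference was 0.26 (SE 0.08, adjusted p = 0.023, edgeR). The call was lost when any of ff libraries 7, 17 or 18 or dcKO library 3 was left out, with adjusted p from 0.0525 to 0.091 and the smallest difference, 0.18, without ff library 17. Slc12a2 is also known from choroid plexus. In dcKO library 12, whose choroid plexus markers summed to 12.8 TPM against 1459 to 2548 TPM in ff, Slc12a2 stood at 19.1 TPM, under the other dcKO libraries (19.6 to 23.5 TPM) and above every ff library (13.02 to 17.2 TPM).

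Slc12a5 was at 88.1, 91.2, 75.0 and 81.2 CPM in ff and at 100.3, 91.5, 107 and 114 CPM in dcKO. The highest ff and lowest dcKO libraries were almost level, and with CPM scaled over all 14 libraries they crossed. The means were 83.9 ± 7.25 and 103 ± 9.73 CPM (SD, n = 4 each), a difference of 0.30 (SE 0.08, adjusted p = 0.0099, edgeR). In 1 fit of all 14 libraries the call was lost for Slc12a5 (0.26, adjusted p = 0.22) and Slc12a2 (0.22, adjusted p = 0.0525). Without dcKO libraries 2 and 12, an alternative chosen after seeing the data, the 4 alpha subunits were called and neither cotransporter was, at adjusted p = 0.055 for Slc12a5 and 0.063 for Slc12a2. On the log2(TPM + 1) scale the median of all tested genes at E18.5 was itself shifted by 0.12, and an exact two-sided permutation test over libraries gave an unadjusted p of 0.0286, the smallest this design can give, for 3 of the 7 genes, Gabra5 (-0.29), Slc12a2 (0.38) and Slc12a5 (0.41). Adjusted over the 7 tests, this p is 0.067 and none passes. The share of all tested genes that reach this p was not computed, so the 3 genes cannot be set against it. In TPM the groups overlapped for Gabra2, Gabra3 and Gabra4, which were separate in CPM, and for Gabrb2. Their unadjusted exact two-sided permutation p was 0.0857, 0.0857, 0.143 and 0.257, in that order.

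The authors' deposited table for E18.5 gave log2 fold changes of -0.45, -0.29, -0.37 and -0.41 for Gabra2, Gabra3, Gabra4 and Gabra5. For Gabrb2 the authors' deposited table gave -0.30 with an adjusted p of 0.0176, under the threshold that the gene missed here. Slc12a2 and Slc12a5 were at 0.22 and 0.26 in the authors' deposited table. Whether the authors' fold changes were shrunk is not stated in the sources used here. Their sizes may therefore not compare directly with those from edgeR.

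The genotype difference itself differed between stages for 1 of the 7 genes, with 16.5% of 19327 genes called in either direction. Gabra5 had an interaction of -0.72 (SE 0.21, adjusted p = 0.030, edgeR), the gap between its rise of 4.02 in ff and 3.30 in dcKO. The call was lost, with adjusted p from 0.0515 to 0.078, when any of E12.5 ff library 7, E12.5 dcKO libraries 2, 6 or 10, or E18.5 ff libraries 7 or 17 was left out. Its smallest size, -0.44, came without E12.5 ff library 7, where Gabra5 was at 3.29 CPM. For the other 6 genes the interaction ran from -0.27 (Gabra3, adjusted p = 0.15) to 0.31 (Slc12a2, adjusted p = 0.096).

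The balance of the 2 cotransporters changed with stage, and no genotype difference in it passed the test. The log2 ratio of Slc12a5 to Slc12a2 TPM was -0.32, -1.47 and -1.68 in E12.5 ff libraries 4, 7 and 9 and -0.59, -0.83 and -0.70 in dcKO libraries 2, 6 and 10. Slc12a2 was the more abundant transcript in all 6 libraries, and the dcKO ratios lay inside the ff range (difference 0.45, exact two-sided permutation p = 0.4, with 0.1 the smallest possible). At E18.5 the ratio was 0.90, 0.93, 1.00 and 0.79 in ff libraries 7, 8, 17 and 18 and 0.61, 0.74, 1.17 and 1.19 in dcKO libraries 2, 3, 12 and 13. Slc12a5 was the more abundant transcript in all 8 libraries, and the dcKO ratios were spread on both sides of the ff ratios. The means were 0.90 ± 0.09 and 0.93 ± 0.30 (SD, n = 4 each), a difference of 0.03 (exact two-sided permutation p = 0.886). From E12.5 to E18.5 the mean ratio rose by 2.06 in ff and by 1.63 in dcKO, with no overlap of stages in either genotype.

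The make-up of the alpha subunits also changed with stage. In ff at E12.5, Gabra3 made up 38.0% ± 2.71 and Gabra2 31.9% ± 8.87 of the summed TPM of the 6 alpha subunit genes, and Gabra5 12% ± 3.38 (SD, n = 3). In ff at E18.5, Gabra5 made up 35.6% ± 2.52, Gabra2 24.7% ± 2.69, Gabra3 23.6% ± 0.94 and Gabra4 6.86% ± 0.10 (SD, n = 4). Gabra6, the cerebellar granule cell subunit, was at most 0.32% in any library. The E18.5 libraries labelled dcKO had 35.2% Gabra5, 24.2% Gabra2, 25.1% Gabra3 and 7.28% Gabra4. Differences in the shares of Gabra2, Gabra3, Gabra4 and Gabra5 were at most 1.498 percentage points, with exact two-sided permutation p from 0.114 to 0.743 and adjusted p from 0.228 to 0.743 over the 4. The summed alpha TPM was 144 to 169 in ff and 115 to 137 in dcKO, without overlap.

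**Figure D3:**
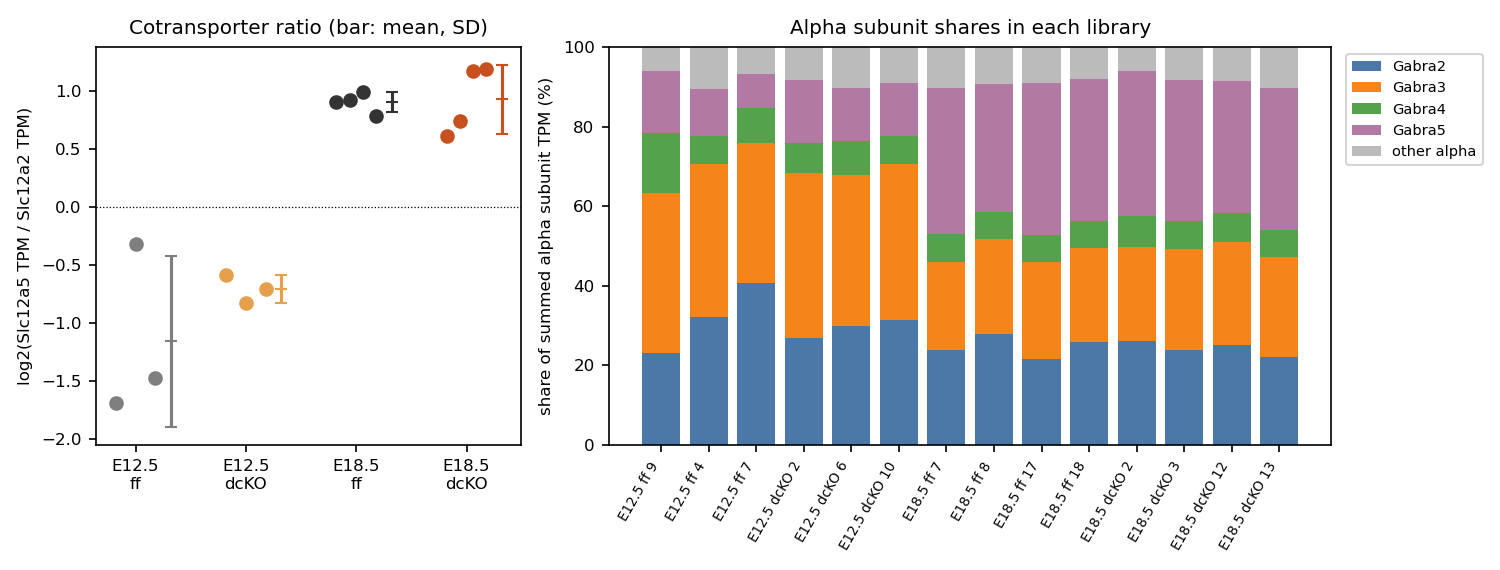
Left, log2 ratio of Slc12a5 to Slc12a2 TPM in each library, with group mean and SD. Right, share of Gabra2, Gabra3, Gabra4 and Gabra5 in the summed alpha subunit TPM of each library, in percent, with the remaining alpha subunits together in grey. All E12.5 ratios lie below 0 and all E18.5 ratios above, and the Gabra5 share is larger at E18.5 in both genotypes.

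Marker lists of cell types also differed between genotypes at E18.5. Of 12 pan-neuronal markers 10 were lower in the libraries labelled dcKO (median log2 difference -0.30), and their summed TPM was 6822 to 7065 in ff and 4798 to 5461 in dcKO. Of 7 glutamatergic markers 6 were lower and Bcl11b was higher, with sums of 937 to 1081 TPM in ff and 616 to 721 TPM in dcKO. All 10 interneuron and ventral markers were higher, with sums of 734 to 843 TPM in ff and 1249 to 1384 TPM in dcKO. Striatal markers were higher for 5 of 7, with sums of 188 to 245 TPM in ff and 312 to 341 TPM in dcKO, and radial glia markers for 8 of 10, with sums of 2185 to 2299 and 2378 to 2647 TPM. No marker on these lists was at 0 in all libraries. Their part in the differences of the 7 genes was not tested. At E12.5, Tbr1 of the glutamatergic list was the only marker called. The median log2 difference of that list was -0.72, and its sums were 313 to 441 TPM in ff and 212 to 262 TPM in dcKO, without overlap.

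Set against the summed pan-neuronal TPM of the same library, all 7 genes had higher ratios in dcKO, and none passed adjustment. The log2 ratio to that sum was higher in dcKO by 0.80 for Slc12a2 and 0.82 for Slc12a5, without overlap between groups. It was higher by 0.22 for Gabra3, also without overlap, and by 0.10 to 0.21 for the other 4 subunits, which overlapped. The 3 separated genes had an exact two-sided permutation p of 0.0286, the smallest possible, which became 0.067 after adjustment over the 7 ratios. The direction of the subunits depended on the reference. Against the median of the 12 markers by CPM, added after seeing the data, they differed by -0.12 to -0.29. This reference changed both the unit and the way the markers were combined. Both cotransporters were higher under that reference as well, by 0.45 and 0.47. Against 7 glutamatergic markers the cotransporter ratios were higher by 1.00 and 1.03, and those of Gabra3 and Gabra4 by 0.42 and 0.41. Each of the 4 had an exact permutation p of 0.0286, again the smallest possible. It adjusts over the 7 ratios to 0.05, equal to the threshold and counted as passing. The pan-neuronal and glutamatergic sums were themselves lower in dcKO without overlap, and a lower sum raises the ratio of every gene. Gabra3 and Gabra4 were called lower without a marker reference.

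**Figure D4:**
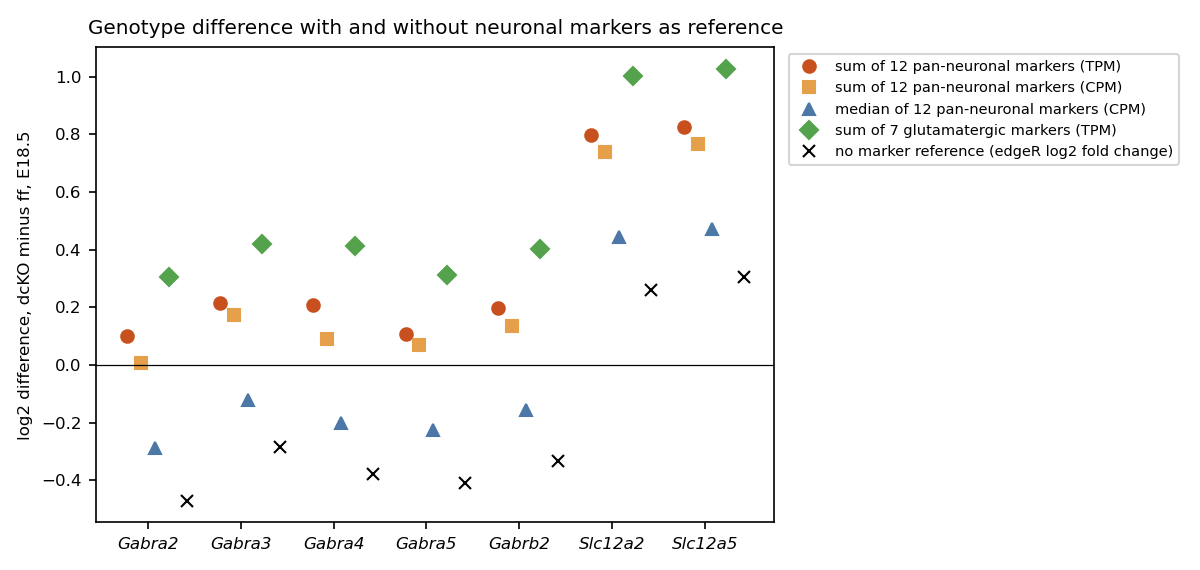
Difference between dcKO and ff at E18.5 on the log2 scale, for each gene against 4 neuronal references and with none. The subunits lie on both sides of 0 depending on the reference, and both cotransporters lie above 0 with each of them.

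The rest of the pathway was described from 6 lists of 76 genes. At E12.5 none of the 67 tested was called by edgeR, against 0.19% of 17853 genes. An unadjusted p under 0.05 in edgeR's test was found for 17 of the 67 and for 3433 of the 17853. DESeq2 called 4 (Rest, Slc12a7, Trak1 and Wnk3) and limma-voom called Slc12a7, names given after their values were seen. The shares of all genes called by DESeq2 and limma-voom are not given here, so these calls have no background beside them. At E18.5, 12 of 68 tested (17.6%) were higher and 17 (25%) lower by edgeR's quasi-likelihood test, against 15.6% and 16.6% of all genes. Named genes are among the 3 called genes with the lowest p of each list, and Gabrb1, Wnk4, Cab39, Clcn3, Iqsec3, Kctd8, Glrb and Gad1 were named after their values were seen to complete short counts.

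Among the other GABA-A subunits, 3 of 10 tested fell and 1 rose at E18.5. The beta subunit Gabrb1 fell by 0.36 on the log2 scale (adjusted p = 0.0102, edgeR). Gabrg3, a gamma subunit, rose by 0.49 (adjusted p = 0.00081, edgeR). The list had a median of 0.06. The other SLC12 cotransporters had 1 call in 5 tested, Slc12a9, which rose by 0.20.

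Regulators of chloride and of the cotransporters were called higher for 2 and lower for 4 of 17. The chloride channel gene Clcn2 rose by 0.53 and Wnk4, a kinase of the pathway that phosphorylates both cotransporters, by 0.44. Slc4a8, a sodium-driven chloride bicarbonate exchanger, fell by 0.41, Neto2, an auxiliary protein that binds KCC2, by 0.28, Clcn3 by 0.18 and Cab39 by 0.14. Of 18 genes for anchoring and trafficking of the receptor, 6 fell and 2 rose. Trak1, a motor adaptor, fell by 0.41, and Gabarapl1, of the GABARAP family, fell by 0.35. Hap1, an adaptor linked to receptor recycling, rose by 0.53, and Iqsec3, a gephyrin-binding exchange factor, rose by 0.30.

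GABA-B and glycine receptor genes were lower for 4 and higher for 1 of 9 tested. Gabbr2, an obligate GABA-B subunit, fell by 0.56, its auxiliary subunit Kctd12 fell by 0.51, Glra2, the embryonic glycine receptor alpha subunit, fell by 0.34 and Glrb fell by 0.29, while Kctd8 rose by 0.54. GABA synthesis and transport genes were higher for 5 of 9 and lower for 0 by edgeR, with 1 of the other 4 (Slc6a11, -0.17) at an unadjusted p under 0.05 and a negative sign. Slc32a1, the vesicular GABA transporter, rose by 0.89, the synthesis enzymes Gad2 and Gad1 rose by 0.83 and 0.62, and Abat, which breaks GABA down, rose by 0.68. Gad1, Gad2 and Slc32a1 are also on the interneuron list whose sums are given above.

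**Figure D5:**
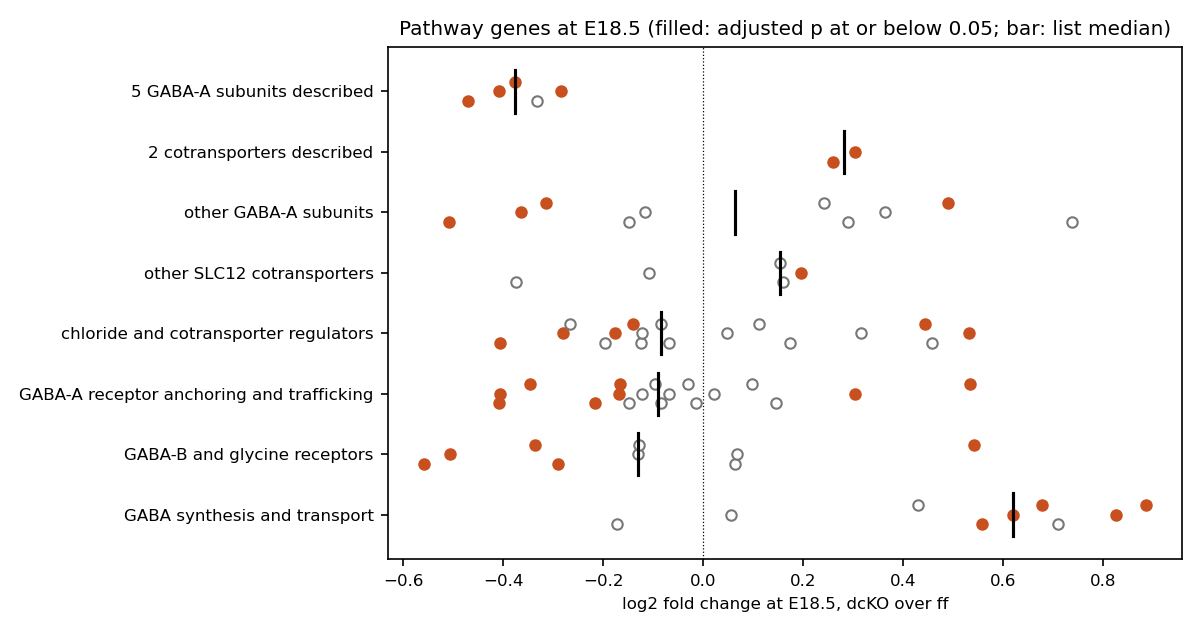
Genotype difference at E18.5 of the 7 genes and of every tested gene on the 6 lists, as log2 fold change of dcKO over ff from edgeR. Filled points passed the adjusted p threshold of 0.05 and vertical bars are medians of each row. The described subunits lie below 0, and the genes for GABA synthesis and transport lie mostly above it.

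The closest profiles over the 14 libraries were found by the root mean square (RMS) difference of centred log2 CPM, out of 19320 genes. Gabra3 was closest to Syt1 (0.08) and Mtss2 (0.087), and Syt1 is a synaptic vesicle gene on the pan-neuronal list. Gabra2 was closest to Gria3 (0.109) and Slc24a2 (0.174), and the 2 closest genes included C1ql3 (0.15) for Gabra4 and Adamts3 (0.15) for Gabrb2. Gabra5 was closest to Cdkl2 (0.159) and Plppr4 (0.188), and Slc12a5 to Grik1 (0.109) and Kirrel3 (0.129). Slc12a2 was closest to Xpnpep3 (0.083) and Cstf2 (0.090). For comparison, the median difference to all genes was 0.44 for Slc12a2 and 0.86 to 1.84 for the other 6. Among the 7 themselves, Gabra3 and Gabrb2 were closest (0.22) and Gabra5 and Slc12a2 farthest apart (1.83). The 14 points share stage and library depth, so these values describe the profiles and carry no test.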

How the data were processed

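Libraries were made with a stranded polyA kit, per the labels, and the tools named are STAR, Trim Galore, DESeq2 and RSEM, per the submitters' processing notes, with versions, genome build and counting strand not given in the sources used here. Expected counts and TPM per gene are RSEM output that the authors deposited without further scaling. The authors' deposited comparison tables hold a mean normalized count (signal), a log2 fold change, and a p-value and adjusted p per gene from DESeq2, per the file headers. The table named for E18.8 was read as E18.5, since 96.64% of its mean counts came within 1% of those computed from the E18.5 counts.

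Groups came from the column names, whose group and number matched 1 title each. Library names given in the descriptions belonged to another group's title in 11 of 14 samples and was not used. The members, pathway lists and marker lists were chosen with earlier results of these data known.

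Expected counts were rounded, filtered with filterByExpr, scaled by TMM and tested in R 4.3.3 with the robust quasi-likelihood F test of edgeR 4.0.16, each stage in its own fit and the interaction and stage comparisons in 1 fit of 14 libraries. Benjamini-Hochberg adjustment ran over all genes tested, at a threshold of 0.05. Ratios and shares of TPM were tested by exact two-sided permutation over libraries. Scripts were tested on simulated data. Genes named were the 7 members, up to 3 called genes with the lowest p in each pathway list and the 2 closest profiles of each member, and some of the genes this rule takes are not reported here. Promoter windows came from RefSeq on GRCm38.p6, without covering every chromosome, and exon overlaps from GENCODE M21. Alternatives were DESeq2 1.42.0 and its size factors, limma-voom (limma 3.58.1), no filter, a length correction by splines, sex as a covariate, 1 fit of 14 libraries, log2(TPM + 1), each library left out, and both libraries under 10 M counts left out.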

Additional observations from a re-analysis of the deposited data

Results flagged for a closer look

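The genotype difference of Gabra5 at E18.5 minus that at E12.5 was -0.72 on the log2 scale by the interaction term of edgeR's quasi-likelihood fit (adjusted p = 0.030). It drew attention because the effect of genotype differed between the 2 stages by a direct test. The difference was 0.17 at E12.5, where the groups overlapped, and -0.41 at E18.5, where they did not. These come from a separate fit of each stage and the interaction from 1 fit of 14 libraries, so they do not subtract to it exactly. Over 20 alternatives the interaction ran from -0.95 to -0.44, and it missed the threshold in 6 of them, all with 1 library left out. At E12.5 the 3 ff libraries ranged from 3.29 to 6.82 CPM, with 33 counts behind the highest. No library stood apart from its group in any of the 16 group sets of 4 libraries examined, all at E18.5. The E12.5 groups, with 3 libraries each, were not examined in this way.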

How the results depend on the processing

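The 7 genes gave 0 calls at E12.5 under every alternative run, though DESeq2 gave Gabra4 and Gabra5 no adjusted p there. The 6 calls at E18.5 became 4 to 7 in the count-based alternatives and 3 with log2(TPM + 1) by the unadjusted exact permutation p. None of these 3 passed adjustment over the 7 genes, and the share of all genes at that p was not computed. Gabra5 was called at E18.5 in every count-based alternative run. For pathway genes at E12.5, the 0 calls became 4 with the DESeq2 Wald test, 1 with limma-voom, 2 with no filter, 1 without both shallow libraries and 3 in 1 fit of all libraries, and ranged from 0 to 4 with each replicate left out. The shares of all genes called in these settings are not given here. For the interaction, the 1 call became 2 with the DESeq2 Wald test, which added Slc12a2, and ranged from 0 to 2 with each replicate left out. Slc12a2 between stages in dcKO turned to -0.30 with a length correction, which also called it in ff, and the cause was not tested. At E12.5, fold changes followed gene length across genes (Spearman rho -0.413, against 0.0195 at E18.5). Against 7 glutamatergic markers in place of pan-neuronal ones, 4 of the 7 ratios had an adjusted p of 0.05, equal to the threshold, against 0 at or below it. With 3 libraries against 3, the permutation test cannot go below 0.1, so TPM gave no test at E12.5. With each E18.5 library left out, 0 shares and 0 neuronal ratios passed adjustment. No paired analysis was possible because the groups compared share no more than 1 replicate number. In the shallow libraries the 7 genes had 33 to 627 counts each.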
